A study of Mus musculus with 7 samples.

Results

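The ER to Golgi coat and cargo genes are the genes whose products move newly made proteins out of the endoplasmic reticulum (ER) and back again. They were taken from a liver mRNA table by gene symbol alone, as the families Sec13, Sec16, Sec22, Sec23, Sec24, Sec31, Sec61, Sec62, Sec63, Sar1, Cop (COPI subunits), Tmed, Lman, Surf4 and Trappc, and no measured value entered the choice. The rule found 63 of the 21706 listed gene symbols, and 58 of these were among the 10455 genes that passed the filter on low values. The livers came from C57BL/6 males (C57BL/6 is an inbred strain of laboratory mouse) that were 8 weeks old and received intraperitoneal injections for 2 weeks. The control group (4 libraries, controls 1 to 4) received a control oligo, and the oligo-1 group (3 libraries) received tsRNA-Glu-CTC Oligo-1, a synthetic copy of a small RNA derived from the transfer RNA for glutamate. According to the study's methods, all these mice ate the same semisynthetic diet low in fat and cholesterol and were fasted before tissue collection, and each library came from a separate mouse. None of the mice carried an engineered allele according to the labels, and no uninjected mice were among the samples used here.

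Proteins that will be secreted, such as albumin, clotting factors and the apolipoprotein B of very low density lipoprotein, enter the ER through the Sec61 channel. At ER exit sites the small GTPase Sar1 recruits an inner coat of Sec23 and Sec24, which picks the cargo, and an outer cage of Sec13 and Sec31, and together these form COPII vesicles. Transmembrane receptors of the p24 (Tmed), lectin (Lman) and Surf4 families collect soluble cargo, TRAPP complexes tether arriving vesicles, and the COPI coat returns escaped proteins and receptors to the ER. The same route carries the membrane-bound precursors of the sterol regulatory element binding proteins (SREBPs), transcription factors for cholesterol and fatty acid synthesis, because their escort Scap binds the COPII coat when cholesterol is low.

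The values were TPM, a unit that corrects for transcript length and expresses each gene as its share of the transcripts in its library, so levels can be set side by side between genes, whereas read depth is unknown. Hepatocyte markers were high in every library, with a summed level of 89987 to 103315 TPM over the 11 listed of 12 markers. Controls 1 and 4 stood apart from the other 5 libraries. Single hepatocyte markers showed this too, although their sum did not. Cyp2e1 reached only 1517 TPM in control 1 and 1134 TPM in control 4, whereas no other library fell below 3203 TPM. Serpina1c was likewise lowest in these controls (5295 and 5447 TPM, next lowest 7846 TPM in oligo-1 3). Alb and Ahsg went the other way, with their highest values in the same controls. The summed level of 12 Kupffer cell markers was 690 and 892 TPM in controls 1 and 4 and 100.5 to 160.0 TPM in the other 5, that of 14 stellate cell and fibroblast markers was 581 and 541 TPM against 146 to 162 TPM, and that of 6 erythroid markers was 385 and 1003 TPM against 83.3 to 170.0 TPM. The medians of roles and gene lists below are therefore given with and without these 2 controls. In bulk liver, fewer cells of a type and less RNA per cell cannot be told apart.

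No ER to Golgi gene differed between oligo-1 and control after adjustment for all genes, and the differences that were largest relative to their error were downward. By limma on log2(TPM + 1), 0 of the 58 tested genes had a Benjamini-Hochberg adjusted p below 0.05 (0.0% of all 10455 genes), and their adjusted p ranged from 0.589 to 0.996. At an unadjusted p below 0.05, 0 of the 58 were higher in oligo-1 (1.81% of all genes) and 2 were lower, Trappc14 and Sec23ip, which is 3.45% of the 58 beside 4.25% of all genes. By thresholds like those of the study, an unadjusted p below 0.01 and a fold above 1.5, 0 were higher (0.641% of all genes) and 1 was lower, Trappc14 (0.832% of all genes), a call that was lost when any library other than control 2 was left out. The study applied its limits with another tool, edgeR, and not with limma, so its calls need not be the same. In 0 of the 58 did every oligo-1 library lie above every control (2.0% of all genes), and in 4 of them, Trappc14, Sec23ip, Trappc2 and Trappc10, every oligo-1 library lay below every control, 6.9% beside 4.98% of all genes. These shares of the members were near those of the whole table. Control 2 carried weight in them, because without it 0 members were higher (2.04% of all genes) and 8 were lower at an unadjusted p below 0.05 (13.8% beside 14.5% of all genes), and 0 lay above (2.62%) and 19 below all remaining controls (32.8% beside 20.8%).

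The centre of the differences followed the table as well. The median log2 fold change of the 58 genes was -0.19, with 47 below 0 and 11 above, and the median over all 10455 genes was -0.16, which is the value of the typical gene in this comparison. The median 95% confidence interval of a member reached 0.53 on the log2 scale to either side of its estimate, and for 56 of the 58 the interval spanned 0. When each library was scaled by a trimmed mean of ratios (TMM-type scaling), the median of all genes moved to 0.0028 and that of the members to -0.013, with 26 members above 0 and 32 below. Under both scalings the median of the members lay close to that of all genes. Because 1 was added to each TPM before the logarithm, the fold changes of genes at low levels are understated.

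**Figure D1:**
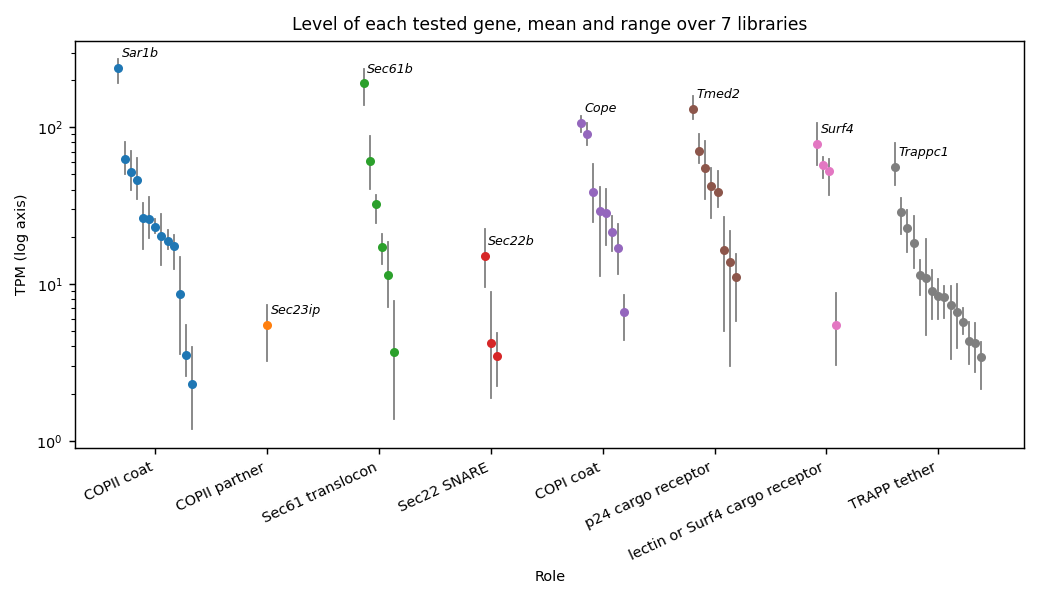
Level in TPM (log axis) of each of the 58 tested genes by role, with points for the mean over 7 libraries and lines from the lowest to the highest library. The highest gene of each role is named, from Sar1b at 238 TPM down to Sec23ip at 5.49 TPM.

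Levels differed widely within most roles, from a mean of 238 TPM for Sar1b to 2.32 TPM for Sec31b, with a median of 18.6 TPM over the 58 genes. In the COPII coat the GTPase Sar1b was by far the highest of 13 genes. Its level was 193, 272, 243 and 207 TPM in controls 1 to 4 and 263, 252 and 238 TPM in oligo-1, so the groups overlapped and the lowest values were those of controls 1 and 4. The log2 fold change was 0.15 (SE 0.16, unadjusted p = 0.393, limma adjusted p = 0.809). Its paralogue Sar1a had the opposite profile, at 70.9, 41.7, 53.7 and 67.7 TPM in the controls and 43.4, 46.0 and 40.0 TPM in oligo-1, and the oligo-1 libraries overlapped control 2. Its log2 fold change was -0.40 (SE 0.21, unadjusted p = 0.0852, limma adjusted p = 0.768). In human patients, loss of SAR1B causes chylomicron retention disease, in which large lipoproteins stay in the ER. Sar1b lies head to head with the cargo adaptor gene Sec24a on chromosome 11, the gene bodies being 52 bases apart in the GENCODE M21 annotation (GRCm38). In RefSeq, used for the promoters below, the starts are farther apart. The promoter windows there are at 51756785 to 51757084 for Sec24a and 51763413 to 51763712 for Sar1b. Sec24a likewise was not raised in controls 1 and 4, at 17.5, 17.4, 22.1 and 17.9 TPM in the controls and 16.8, 19.3 and 21.1 TPM in oligo-1.

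None of the 13 COPII coat genes had an unadjusted p below 0.05 (limma). Sec31a, the main outer cage gene, was at 80.4, 50.8, 50.1 and 74.3 TPM in the controls and 58.7, 55.7 and 67.6 TPM in oligo-1, where all 3 oligo-1 libraries lay between the 2 lower and the 2 higher controls. Its minor paralogue Sec31b had the highest log2 fold change of the 58 genes, 0.47 (SE 0.26, unadjusted p = 0.105, limma), at 1.53, 1.19, 2.78 and 1.92 TPM in the controls and 2.28, 3.96 and 2.56 TPM in oligo-1. Its oligo-1 mean of 2.93 TPM lay above every control, and control 3 overlapped the oligo-1 libraries. Sec23a, an inner coat GTPase activator whose loss in humans causes a skeletal disorder, was at 34.4, 20.1, 25.7 and 35.8 TPM in the controls and 23.4, 23.9 and 19.7 TPM in oligo-1. Sec23b, its paralogue, was the most scattered of the inner coat genes, from 3.57 TPM in oligo-1 3 to 14.8 TPM in control 1. The steadiest member of all was Sec16b, a scaffold of ER exit sites, at 22.5, 21.1, 26.1 and 22.5 TPM in the controls and 22.9, 23.1 and 22.8 TPM in oligo-1, with a highest library 1.24 times its lowest. Its log2 fold change was -0.0019 with a 95% confidence interval from -0.37 to 0.36. Sec24d, one of the adaptors that select cargo, was at 26.8, 13.2, 15.2 and 27.8 TPM in the controls and 20.9, 19.4 and 19.2 TPM in oligo-1. Again the oligo-1 values fell between the 2 lower and the 2 higher controls, and the log2 fold change was 0.0086 (SE 0.28) with all controls and 0.46 (unadjusted p = 0.0298, limma) without controls 1 and 4. Of the 13 coat genes 4 had a fold change above 0 and 9 below, with a median of -0.060. The median was -0.029 without controls 1 and 4, with 5 above 0 and 8 below, and 0.12 with TMM-type scaling. The summed level of the 13 was 554 ± 34.6 TPM (SD, n = 4) in the controls and 534 ± 18.5 TPM (SD, n = 3) in oligo-1.

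Sec23ip, which binds Sec23 at ER exit sites and is a relative of phospholipases, was 1 of the 2 members with an unadjusted p below 0.05. It was at 7.24, 4.72, 7.05 and 7.32 TPM in the controls and 4.15, 4.70 and 3.24 TPM in oligo-1. The groups did not overlap, but the gap was narrow, because control 2 at 4.72 TPM lay beside oligo-1 2 at 4.70 TPM. The means were 6.58 ± 1.24 TPM (SD, n = 4) and 4.03 ± 0.738 TPM (SD, n = 3). The log2 fold change was -0.59 (SE 0.23, 95% confidence interval -1.09 to -0.081), with an unadjusted p of 0.0276 and an adjusted p of 0.768 over all genes (limma). By the same model it was -0.43 (unadjusted p = 0.0158) with TMM-type scaling and -0.44 (unadjusted p = 0.0995) without controls 1 and 4. With each library left out in turn the unadjusted p ran from 0.00576 to 0.108 and was below 0.05 in 2 of 7 cases, without control 2 and without oligo-1 2. The gene lies at chromosome 7, positions 128744943 to 128784836 of GRCm38, plus strand.

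A letter pattern was found in the promoters of 12 of the 21 COPII and COPI coat genes and in none of the other roles with a promoter entry, a description with no test. Several patterns were searched, and this one divided the pooled coats from the other roles most sharply. Promoters were taken from RefSeq (build GRCm38.p6) as 250 bases before to 50 bases after the start, and 53 of the 63 genes had an entry. The sequence TGACGT, the core of cyclic AMP response elements, was found on either strand in 12 of these 53 (22.6%), in 7.51% of all 32851 promoters and in 13.5% of the 8407 genes tested here with a promoter. All 12 were coat genes, 8 of 13 for COPII and 4 of 8 for COPI, and 0 of the 32 genes of other roles held it. The longer TGACGTGG, which contains TGACGT and also ACGTGG, was in 5 of the 53 (9.43%), namely Sec16b, Sec23a, Sec24d, Copb1 and Copb2, in 0.676% of all promoters and in 0.98% of the tested genes. ACGTGG on its own was in 20 of the 53 (37.7%), beside 13.5% of the tested genes. It was in 13 of the 21 coat genes and in 7 of the 32 others, so it did not keep to the coats. The CCAAT box, GC box, YY1-type and ETS-type motifs were in 39.6%, 64.2%, 7.55% and 28.3% of the 53. In the tested genes the same shares were 43.0%, 68.6%, 5.64% and 21.1%. The last 60 bases before the start are shown for the coat genes in which TGACGT lies wholly inside them, 5′ to 3′ on the strand of the gene, with TGACGT or its reverse complement in capitals.
Sec16a: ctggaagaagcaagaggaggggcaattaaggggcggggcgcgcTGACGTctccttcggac
Sec16b: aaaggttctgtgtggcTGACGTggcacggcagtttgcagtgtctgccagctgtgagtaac
Sec23b: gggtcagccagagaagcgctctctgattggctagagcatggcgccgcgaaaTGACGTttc
Sec24d: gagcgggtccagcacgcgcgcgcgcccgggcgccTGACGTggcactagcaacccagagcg
Copb1: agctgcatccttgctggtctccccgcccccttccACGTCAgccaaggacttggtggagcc
Copz1: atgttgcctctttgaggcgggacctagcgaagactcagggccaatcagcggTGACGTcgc

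These stretches are chr2:26445217-26445276 on the minus strand for Sec16a, chr1:157506736-157506795 on the plus strand for Sec16b, chr2:144556169-144556228 on the plus strand for Sec23b, chr3:123267436-123267495 on the plus strand for Sec24d, chr7:114254681-114254740 on the minus strand for Copb1 and chr15:103272828-103272887 on the plus strand for Copz1. The element began at base -26 in Sec24d and again at base -26, on the opposite strand, in Copb1, and in both it was part of TGACGTGG. The median log2 fold change was -0.13 over the 12 tested genes with TGACGT and -0.18 over the 37 tested members with a promoter but without it, a description of these libraries with no test. The ER stress response element ERSE was in 0 of the 53 promoters and in 0.119% of all (0.19% of the tested genes), and the sterol element core TCACCCCAC was in 1 of them, Sec24d (1.89%), beside 0.551% of all (0.726% of the tested genes). The E-box CACGTG, of which bases can also be part of ACGTGG, was in 8 of the 53 (15.1%), among them Sec23ip and Trappc10, in 7.15% of all promoters and in 12.1% of the tested genes, so the share of the members was near that of the tested genes. Trappc2, also without overlap between groups, had a promoter without CACGTG, and Trappc14 had no promoter entry. The other tested members with CACGTG, namely Tmed10, Sar1a, Sec62, Trappc5 and Sec22c, all overlapped between groups. The median log2 fold change was -0.22 over the 7 tested members with CACGTG and -0.18 over the 42 without it, and a link to the levels was not tested. The stretch before the start of Sec23ip, chr7:128744810-128744869 on the plus strand, is shown with its E-box in capitals because this gene was among the 4 without overlap.
Sec23ip: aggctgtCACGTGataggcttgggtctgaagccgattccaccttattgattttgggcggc

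**Figure D2:**
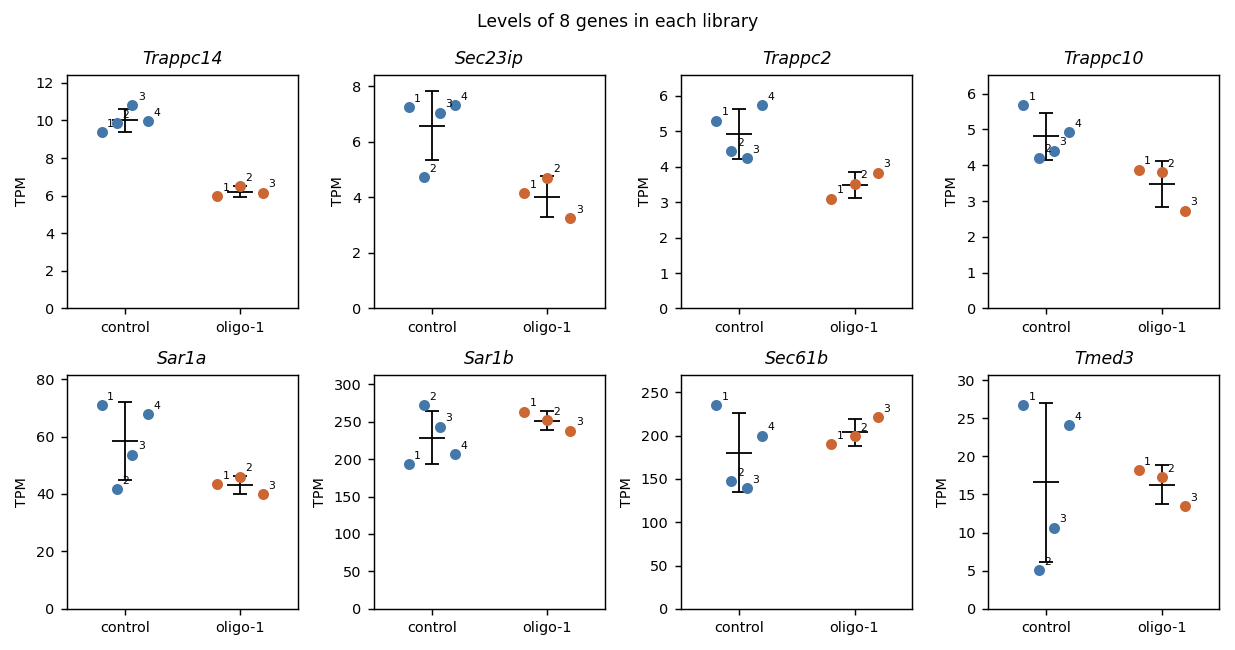
TPM of 8 genes in each library, with points numbered by replicate, black bars for the group mean and whiskers for 1 SD (4 controls, 3 oligo-1). The groups do not overlap in the upper row, whereas in the lower row controls 1 and 4 sit apart from controls 2 and 3 and the groups overlap.

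The Sec61 translocon genes included the second most abundant member of all, Sec61b, a small subunit of the channel. Sec61b was at 235, 147, 139 and 200 TPM in the controls and 191, 199 and 221 TPM in oligo-1. The groups overlapped because of controls 1 and 4, and the log2 fold change was 0.21 (SE 0.21, unadjusted p = 0.343, limma adjusted p = 0.791). By the same model it was 0.39 (unadjusted p = 0.0346) with TMM-type scaling and 0.50 (unadjusted p = 0.00894) without controls 1 and 4. The pore subunit Sec61a1 was at 88.6, 40.2, 56.6 and 79.5 TPM in the controls and 63.5, 54.0 and 47.0 TPM in oligo-1, and its log2 fold change was -0.21 (SE 0.27). Its minor paralogue Sec61a2 was at 7.76, 2.04, 1.37 and 4.08 TPM in the controls and 3.32, 3.10 and 4.06 TPM in oligo-1, and it had the largest relative spread of the 58 genes. Part of the sequence of Sec61b (37.6% of its 31-base words) also occurs in transcripts of Gm10320 and part of Sec61a2 (33.9%) in transcripts of Nudt5, so the values of these 2 genes are uncertain. The accessory factors Sec62 and Sec63, which serve import after translation, had log2 fold changes of -0.20 (SE 0.18) and -0.12 (SE 0.21), and the small subunit Sec61g had -0.36 (SE 0.26). The 6 genes together summed to 315 ± 75.1 TPM (SD, n = 4) in the controls and 318 ± 3.22 TPM (SD, n = 3) in oligo-1. By library the sum was 406, 243, 265 and 346 TPM in controls 1 to 4 and 315, 317 and 321 TPM in oligo-1, so the oligo-1 libraries lay below controls 1 and 4 and above controls 2 and 3. Over these 6 genes the median log2 fold change was -0.16 with all controls and 0.095 without controls 1 and 4.

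The Sec22 family, which includes the SNARE Sec22b that acts in fusion of vesicles between ER and Golgi, had 3 tested genes. The most abundant, Sec22b, was at 22.3, 9.62, 14.2 and 22.2 TPM in the controls and 13.7, 12.4 and 11.6 TPM in oligo-1. The groups overlapped, and the log2 fold change of -0.34 (SE 0.29, unadjusted p = 0.264, limma adjusted p = 0.776) turned to 0.093 without controls 1 and 4. Sec22a, a relative that lacks the fusion motif, ranged from 1.87 TPM in control 2 to 8.93 TPM in control 4, with the 3 oligo-1 libraries at 4.52, 2.71 and 2.67 TPM in between. For the 3 Sec22 genes the median log2 fold change was -0.33 with all controls and 0.093 without controls 1 and 4.

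Among the 8 COPI coat genes the most abundant was Cope, the epsilon subunit, and it was level between the groups. It was at 118, 108, 96.1 and 104 TPM in the controls and 117, 93.1 and 112 TPM in oligo-1, with a log2 fold change of 0.0064 (95% confidence interval -0.35 to 0.36). Copz1, the main zeta subunit, was at 107, 77.8, 77.2 and 105 TPM in the controls and 90.1, 90.1 and 84.3 TPM in oligo-1, all 3 between the lower and the higher controls. The other 6 had log2 fold changes from -0.48 (Copa, the alpha subunit, SE 0.37) to -0.17 (Copg2, SE 0.24), and the smallest unadjusted p of the coat was 0.232, for Copa. Copa rested in part on oligo-1 3, at 11.3 TPM beside 30.9 and 31.3 TPM in the other oligo-1 libraries. Without controls 1 and 4, 7 of the 8 were above 0 in place of 1 of 8, and the median log2 fold change was 0.12 in place of -0.20. Copg2 shares 22.0% of its 31-base words with Mest and is uncertain.

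The p24 receptors, which ride in both kinds of vesicle, divided the controls in the same way in every tested gene. In 8 of 8 tested Tmed genes controls 1 and 4 both lay above the other 5 libraries. The same held in 51.5% of all genes tested, in 6 of 8 COPI and in 8 of 13 COPII coat genes. Tmed2 and Tmed10, the most abundant, were at 159, 113, 122 and 143 TPM and at 91.0, 59.1, 68.3 and 82.6 TPM in the controls. In oligo-1 they were at 125, 130 and 120 TPM and at 60.2, 69.4 and 66.8 TPM, which is the range of controls 2 and 3 and slightly above it, and the log2 fold changes were -0.093 (SE 0.16) and -0.18 (SE 0.19). Tmed3 showed a wide division, at 26.7, 5.04, 10.7 and 24.04 TPM in the controls and 18.2, 17.2 and 13.4 TPM in oligo-1. Its log2 fold change was 0.21 (SE 0.48, unadjusted p = 0.676, limma adjusted p = 0.903) with all controls and 1.03 (unadjusted p = 0.00651, limma) without controls 1 and 4. Tmed7 had the lowest log2 fold change of the 58 genes, -0.75 (SE 0.51, unadjusted p = 0.173, limma adjusted p = 0.775), with oligo-1 libraries at 11.6, 16.9 and 2.996 TPM. It shares 37.5% of its 31-base words with Ticam2, and its value is uncertain. Over the 8 genes the median log2 fold change was -0.15 with all controls and 0.13 without controls 1 and 4. Tmed8 did not pass the filter, at 0.487 to 0.695 TPM, Tmed6 was above 0 in 1 library only, at 0.0845 TPM, and Tmed11 was listed at 0 in all 7.

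The lectin and Surf4 receptors serve cargo that the liver secretes in bulk. Surf4, known in mouse liver as a receptor for lipoproteins, was at 107, 57.2, 72.5 and 102 TPM in the controls and 76.5, 73.4 and 60.4 TPM in oligo-1. The oligo-1 libraries lay in the range of controls 2 and 3 or just above it, and the log2 fold change was -0.23 (SE 0.24, unadjusted p = 0.356, limma adjusted p = 0.793). Lman1, which with Mcfd2 carries clotting factors V and VIII, was at 64.9, 47.3, 62.1 and 58.1 TPM in the controls and 59.7, 60.99 and 50.4 TPM in oligo-1, a log2 fold change of -0.022 with a 95% confidence interval from -0.41 to 0.37. Lman2 and Lman2l, 2 related lectins, had log2 fold changes of -0.18 (SE 0.21) and -0.24 (SE 0.35). The median of the 4 tested receptors was -0.21 with all controls and 0.090 without controls 1 and 4. Lman1l did not pass the filter and was above 0 in 1 library only, at 0.0392 TPM.

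The TRAPP tethers, which activate Rab GTPases and hold vesicles at the Golgi, held 3 of the 4 genes without overlap between groups. They were also the largest role, with 15 of the 58 tested genes, and over all genes 4.98% lay below every control. Trappc14, known in human cells as a subunit of the TRAPPII complex, was at 9.37, 9.86, 10.8 and 9.94 TPM in the controls and 5.97, 6.51 and 6.16 TPM in oligo-1. Every oligo-1 library lay below every control by more than the range within either group, and controls 1 and 4 did not stand apart in this gene. The means were 9.997 ± 0.603 TPM (SD, n = 4) and 6.21 ± 0.276 TPM (SD, n = 3), and the log2 fold change was -0.61 (SE 0.18, 95% confidence interval -1.005 to -0.21). The unadjusted p was 0.00699 and the adjusted p over all genes 0.589 (limma). By the same model the log2 fold change was -0.44 (unadjusted p = 0.0425) with TMM-type scaling and -0.65 (unadjusted p = 0.00769) without controls 1 and 4. With each library left out in turn it ran from -0.64 to -0.57, with an unadjusted p from 0.00673 to 0.0357. No position is given for this gene because its symbol was not matched in the annotation.

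Trappc2, the adaptor called sedlin whose loss in humans causes an X-linked skeletal dysplasia, was at 5.30, 4.44, 4.24 and 5.74 TPM in the controls and 3.10, 3.52 and 3.83 TPM in oligo-1. The log2 fold change was -0.40 (SE 0.20, unadjusted p = 0.0772, limma adjusted p = 0.768), and the gene lies at chromosome X, positions 166440574 to 166453140 of GRCm38, plus strand. Trappc10, another TRAPPII subunit, was at 5.68, 4.21, 4.41 and 4.92 TPM in the controls and 3.87, 3.81 and 2.73 TPM in oligo-1. The log2 fold change was -0.38 (SE 0.21, unadjusted p = 0.101, limma adjusted p = 0.768), and the gene lies at chromosome 10, positions 78186725 to 78244641, minus strand. In both genes the lowest control lay less than 0.5 TPM above the highest oligo-1 library. Trappc9, the remaining TRAPPII subunit of the list, was at 4.21, 3.03, 3.82 and 4.25 TPM in the controls and 2.95, 3.65 and 2.13 TPM in oligo-1, and here the groups overlapped. Of the core subunits of the complex, the most abundant, Trappc1, was at 66.3, 43.8, 42.6 and 79.4 TPM in the controls and 50.1, 58.4 and 52.2 TPM in oligo-1, with a log2 fold change of -0.066 (SE 0.24), and the core subunit Trappc3 had -0.19 (SE 0.22). Of the 15 tested TRAPP genes 12 were below 0 and 3 above, with a median of -0.19. Without controls 1 and 4 the sign of the median turned, to 0.040, with 7 below 0 and 8 above, and with TMM-type scaling it was -0.018, with 9 below and 6 above. Trappc3l was listed at 0 in all 7 libraries. Trappc4 shares 29.7% of its 31-base words with Rps25 and is uncertain.

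**Figure D3:**
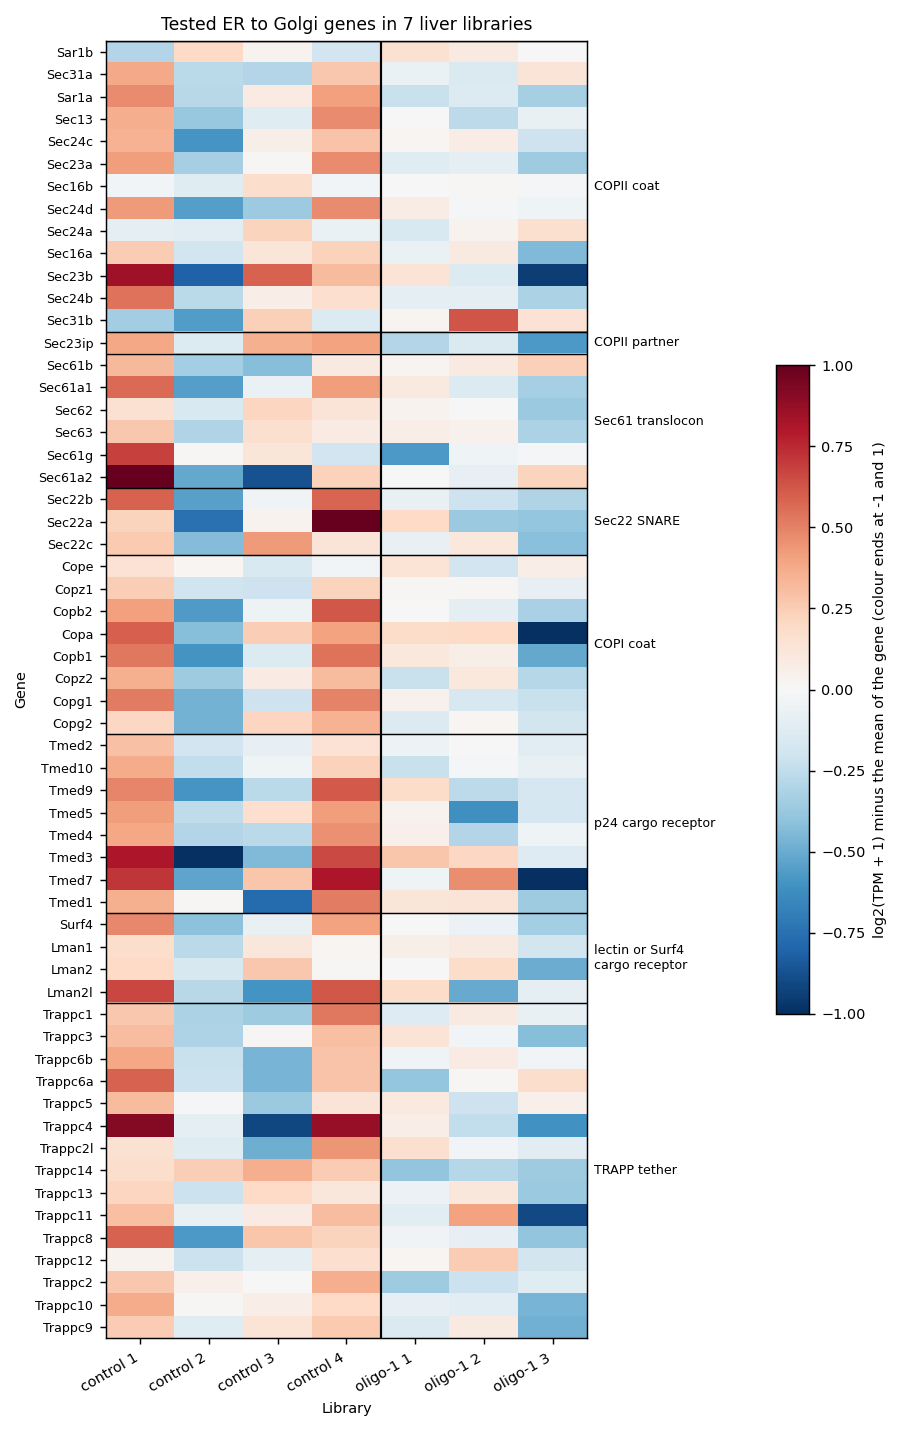
log2(TPM + 1) of the 58 tested genes (rows, by role) in 7 libraries (columns), each gene set to a mean of 0, with red above and blue below and the colour ending at -1 and 1. Controls 1 and 4 are red in most rows, and Trappc14 is among the few rows that are red in all 4 controls and blue in all 3 oligo-1 libraries.

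Controls 1 and 4 accounted for most of the order among libraries. Both lay above the other 5 libraries in 38 of the 58 genes (65.5%), beside 51.5% of all genes tested, and both lay below them in 1, Sar1b. The highest value of the 7 was in control 1 in 31 genes, in control 4 in 17, and in an oligo-1 library in 3. The summed level of all 63 genes was 2432, 1678, 1865 and 2337 TPM in controls 1 to 4 and 1992, 1946 and 1807 TPM in oligo-1, so the 3 oligo-1 libraries lay between controls 2 and 1 and were closer together than the controls. The genes outside this pattern were Cope and Copg2 of COPI, Sar1b, Sec16b, Sec24a, Sec23b and Sec31b of COPII, Sec61b, Sec62, Sec63 and Sec61g of the translocon, Sec22c, Lman1, Lman2, and 6 TRAPP genes including Trappc14. The Kupffer cell, stellate cell and erythroid markers were high in the same 2 libraries, as given above, and their part in these levels was not tested.

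Without controls 1 and 4 the sign of the typical difference turned. The median log2 fold change of the members was 0.066, with 35 above 0 and 23 below, and that of all genes was 0.054. At an unadjusted p below 0.05, 4 members were then higher, Sec24d, Sec61b, Sec61a2 and Tmed3 (6.90% of the 58 beside 6.99% of all genes), and 1 was lower, Trappc14 (1.72% beside 2.81%). In 10 members every oligo-1 library lay above both remaining controls (17.2% beside 17.8% of all genes) and in 5 below them (8.62% beside 7.81%), the latter being Trappc14, Sec23ip, Trappc2, Trappc10 and Sec61g. With TMM-type scaling of all 7 libraries, 2 members were higher, Sec31b and Sec61b (3.45% beside 4.8% of all genes), and 2 were lower, Trappc14 and Sec23ip (3.45% beside 3.77%). Under this scaling 3 lay above all controls (5.17% beside 5.09%), Sec61b, Trappc6b and Trappc12, and 3 below (5.17% beside 4.52%), Sar1a, Sec23ip and Trappc14. Trappc14 and Sec23ip were thus below all controls with and without TMM-type scaling. A gene below all 4 controls is also below controls 2 and 3, so leaving out controls 1 and 4 could not change this and adds no support. No member passed the adjusted threshold in any of these 3 views (limma).

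**Figure D4:**
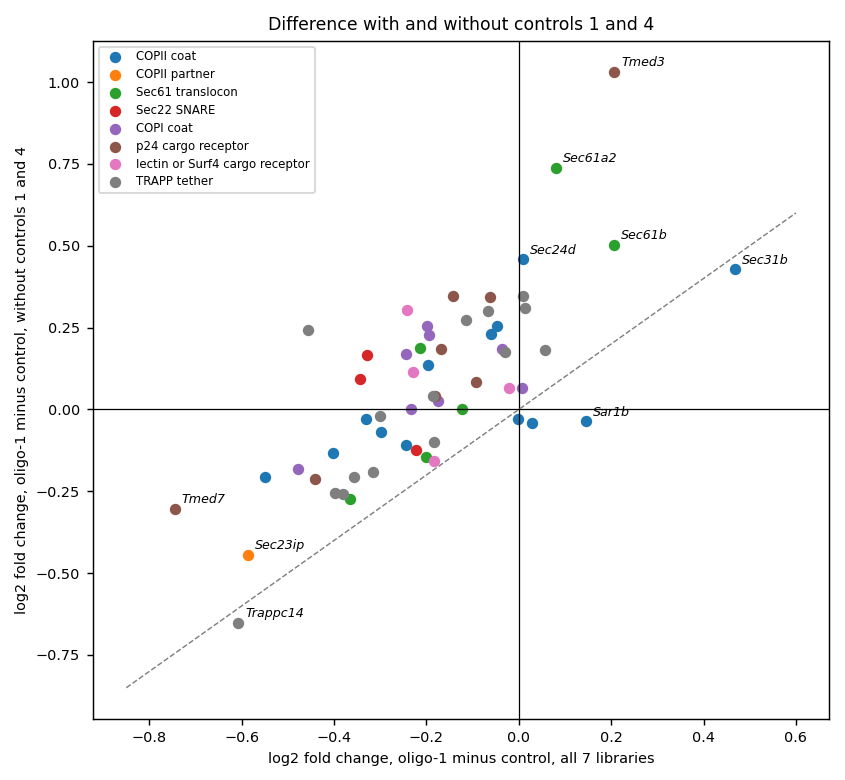
log2 fold change (oligo-1 minus control) of the 58 tested genes with all 7 libraries (x axis) and without controls 1 and 4 (y axis), coloured by role, with equal values on the dashed line. Most points lie above the line, 47 genes are below 0 on the x axis and 23 on the y axis, and Trappc14 lies near -0.6 on both.

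Coat genes often come as paralogues, and the share of the first gene in 12 such pairs was compared by an exact permutation test over libraries (35 assignments, two-sided, smallest possible p 0.0286, adjusted over the 12 pairs). No pair passed, the smallest p being 0.143 for Copz1 in Copz1 and Copz2 (adjusted p = 0.686). Sar1a made up 26.9, 13.3, 18.1 and 24.7% of the summed Sar1a and Sar1b level in the controls and 14.2, 15.4 and 14.4% in oligo-1. The difference of -6.07 percentage points (exact p = 0.257, adjusted p = 0.686) came with 2 high controls, numbers 1 and 4, and the oligo-1 shares lay between controls 2 and 3. Sec24a was the larger share over Sec24b (82.5 ± 4.77% (SD, n = 4) in the controls and 86.4 ± 2.55% (SD, n = 3) in oligo-1), and Sec24c and Sec24d were nearly balanced (57.1 ± 4.72% and 55.9 ± 2.35% for Sec24c). Sec16a held 44.7 ± 3.38% in the controls and 40.4 ± 4.62% in oligo-1 over Sec16b, Sec31a held 97.0 ± 1.54% and 95.3 ± 1.71% over Sec31b, and Sec61a1 held 94.97 ± 2.34% and 93.9 ± 1.60% over Sec61a2. In all 12 pairs the larger gene was the same in all 7 libraries.

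**Figure D5:**
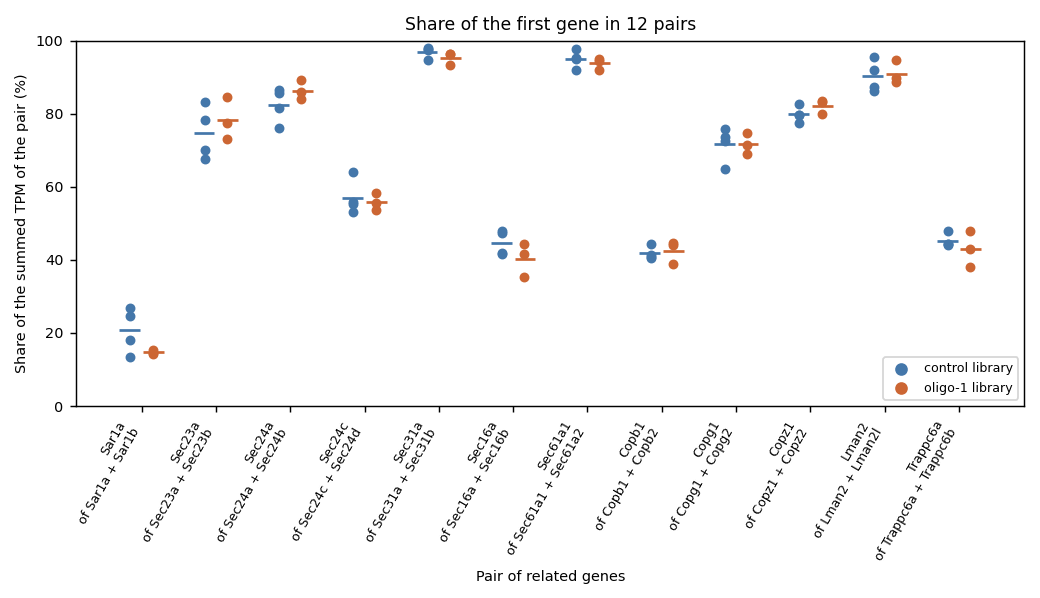
Share (%) of the first gene in the summed TPM of each of 12 pairs of related genes, with a point for each library (blue for control, orange for oligo-1) and a line for each group mean. The groups overlap in every pair, and the shares run from 13.3% for Sar1a in control 2 to 98.1% for Sec31a in control 1.

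Genes that work next to this route were read from fixed lists. Of 36 tested translocation partners (signal recognition particle and its receptor, translocon-associated proteins, signal peptidase, oligosaccharyltransferase, ER membrane complex and the exchange factor Sil1), 0 were higher and 0 lower at an unadjusted p below 0.05, beside 1.81% higher and 4.25% lower over all genes. The median log2 fold change was -0.17, and it turned to 0.043 without controls 1 and 4 and to 0.0060 with TMM-type scaling. The smallest p was that of Spcs1, a signal peptidase subunit, at 169, 122, 121 and 194 TPM in the controls and 119, 118 and 97.8 TPM in oligo-1 (log2 fold change -0.41, SE 0.21, unadjusted p = 0.0775, limma), followed by Emc10 (-0.47, SE 0.25), Emc3 (-0.43, SE 0.23) and Srp54b (-0.37, SE 0.25). Of 42 tested ER to Golgi partners, 1 was higher and 0 lower, beside the same shares over all genes. The median was -0.14, and it turned to 0.14 without controls 1 and 4 and to 0.041 with TMM-type scaling. The higher one was Gorasp1, a Golgi stacking protein, at 8.27, 8.98, 7.49 and 8.94 TPM in the controls and 11.2, 12.4 and 11.1 TPM in oligo-1 (log2 fold change 0.42, SE 0.18, unadjusted p = 0.0428, limma adjusted p = 0.768), with no overlap (2.0% of all genes lay above all controls). Mcfd2, the partner of Lman1, was at 205, 158, 173 and 183 TPM in the controls and 147, 156 and 125 TPM in oligo-1 (log2 fold change -0.33, SE 0.16), and Creb3l3, a liver transcription factor that itself leaves the ER in COPII vesicles, was at 173, 166, 161 and 171 TPM in the controls and 156, 122 and 132 TPM in oligo-1 (-0.30, SE 0.15). In both, every oligo-1 library lay below every control, as in 4.98% of all genes, with unadjusted p of 0.0653 and 0.0697 (limma). The SNARE Gosr2 had -0.56 (SE 0.25).

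The unfolded protein response, which raises ER and secretory genes under stress, gave 0 of 27 tested genes higher and 0 lower at an unadjusted p below 0.05. Over all genes the shares were 1.81% higher and 4.25% lower. The median was -0.17, and it turned to 0.048 without controls 1 and 4 and to 0.018 with TMM-type scaling. The smallest p was that of the chaperone regulator Dnajc3, at 58.4, 56.1, 59.7 and 49.3 TPM in the controls and 49.5, 44.8 and 29.4 TPM in oligo-1 (log2 fold change -0.46, SE 0.20, unadjusted p = 0.0505, limma), and the sensor Atf6 and the chaperones Dnajb11 and Canx had -0.49 (SE 0.24), -0.25 (SE 0.18) and -0.26 (SE 0.20). Genes of the SREBP route and its cargo were chosen with earlier results of these data known. None of them passed the adjusted threshold in the comparison of all 7 libraries without a block (limma). The escort Scap was at 25.1, 17.7, 29.6 and 24.7 TPM in the controls and 33.4, 34.6 and 31.6 TPM in oligo-1 (log2 fold change 0.46, SE 0.20, unadjusted p = 0.0471, limma), with no overlap (2.0% of all genes lay above all controls). The ER anchors Insig1 and Insig2 had 1.27 (SE 0.23) and -1.22 (SE 0.28), and Srebf1 and Srebf2 had 0.71 (SE 0.29) and 0.63 (SE 0.22), all with an unadjusted p below 0.05. The proteases that cut SREBPs in the Golgi, Mbtps1 and Mbtps2, had -0.28 (SE 0.28) and -0.28 (SE 0.29). The secreted cargo Apob was at 1313, 1070, 1140 and 1359 TPM in the controls and 1094, 992 and 748 TPM in oligo-1 (-0.38, SE 0.17, unadjusted p = 0.0539), and the lipid loader Mttp (0.14, SE 0.15), F5 (-0.32, SE 0.19), F8 (0.048, SE 0.32) and Alb (-0.070, SE 0.17) did not pass either.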

How the data were processed

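Livers of 7 mice were sequenced (4 control, 3 oligo-1), with groups and replicate numbers from the library names in the labels. Per the study's methods, total RNA was isolated with TRIzol, Illumina libraries were made and genes were quantified with kallisto (version not given in the sources used here). The submitters' processing notes name the build mm10. The deposited values are TPM, which the authors obtained by dividing estimated reads by transcript length and scaling each library to a fixed total. Reads that match several genes are split by estimate, so genes sharing sequence are less certain, and no depth or counting error can be given.

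The filter on low values asked for 1 TPM or more in 3 or more libraries. log2(TPM + 1) was fitted with limma 3.58.1 (R 4.3.3, trended variance, two-sided), the code was tested on simulated data, and p-values were adjusted by Benjamini-Hochberg over all 10455 genes. Alternatives were a pseudocount of 0.1, no filter, TMM-type scaling (30% of ratios and 5% of levels trimmed at each end), robust eBayes, a replicate block, omission of controls 1 and 4, and omission of each library. p-values measure the spread between these libraries. Positions and 31-base words came from GENCODE M21 (GRCm38, the assembly of mm10), where 62 of the 63 symbols matched and Trappc14 did not. Motifs were searched on both strands.

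The members and lists were chosen with earlier results of these data known. Members were named in full if their unadjusted p was below 0.05, if the groups did not overlap, if they were among the 2 most abundant tested genes of their role, or if they belonged to a pair, and other members were named after their values were seen. Other genes were the 4 of smallest p in each of the first 3 lists and the tested genes of the SREBP list, of which 1 is not reported here.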

Additional observations from a re-analysis of the deposited data

Results flagged for a closer look

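In 2 of the 38 named genes a control lay far from the other 3, with a gap to its neighbour, relative to the range of log2(TPM + 1) among the 4 controls, above Dixon's critical value at the 95% level. Chance flags about 1 in 20 groups, which is about the number found. Sec23ip was at 4.72 TPM in control 2, the lowest, beside 7.05 to 7.32 TPM in the other 3 controls (gap 0.912 of the range). Sec24a was at 22.1 TPM in control 3, the highest, beside 17.4 to 17.9 TPM in the other 3 (gap 0.894 of the range). Groups of 3 were not tested.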

How the results depend on the processing

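No member passed the adjusted threshold of limma under any alternative run, and a pseudocount of 0.1, no filter and robust eBayes changed no count by more than 1.5 times. Of the 38 named members 11 kept the sign of their fold change in every alternative, and the cause was not tested for those that did not. Trappc14 was lower at an unadjusted p below 0.05 in all alternatives but the replicate block. With TMM-type scaling, 2 members were higher at an unadjusted p below 0.05 in place of 0, 3 lay above all controls in place of 0, and 0 were lower by the study's thresholds in place of 1. Over all genes the split moved from 189 higher and 444 lower to 502 and 394. Log2 fold changes that turned sign were Lman2 0.00048, Tmed10 0.0047, Trappc6a 0.066, Tmed2 0.094, Alb 0.12, Trappc1 0.12, Sec24c 0.12, Sec31a 0.14, Copz1 0.15, Lman1 0.16 and Sec16b 0.18. Without controls 1 and 4, the median of the members was 0.066 in place of -0.19, beside 0.054 for all genes. At an unadjusted p below 0.05, 4 members were higher and 1 lower in place of 0 and 2, beside 6.99% and 2.81% of all genes. Above all remaining controls lay 10 members in place of 0, beside 17.8% of all genes. By the study's thresholds 2 were higher in place of 0. The share of all genes was not taken for this count, so it shows nothing particular to the members. Log2 fold changes that turned sign were Sec24a -0.042, Sar1b -0.035, Copz2 0.0016, Copg2 0.027, Tmed10 0.040, Trappc3 0.040, Alb 0.066, Lman1 0.066, Tmed2 0.085, Sec22b 0.093, Surf4 0.11, Mbtps2 0.12, Sec22a 0.17, Copb2 0.17, Copz1 0.18, Sec61a1 0.19, Copg1 0.23, Sec24c 0.23, Copb1 0.25, Sec31a 0.26, Trappc6a 0.27, Trappc1 0.30 and Lman2l 0.30, and the share of Lman2 over Lman2l differed by -2.695 percentage points.

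Same-numbered control and oligo-1 libraries did not deviate together (correlations of their deviations 0.078, -0.015 and -0.11), so the numbers were taken only as names. With the replicate block, 0 members were lower at an unadjusted p below 0.05 in place of 2, 0 were lower by the study's thresholds in place of 1, and 86 genes of the whole table, none of them a member, passed the adjusted threshold. Control 4, which has no oligo-1 library of its number, adds nothing to these estimates. Log2 fold changes that turned sign with the replicate block were Cope -0.0026, Sec24c 0.027, Copz1 0.032, Sec31a 0.035 and Trappc1 0.10. Of the other genes named, Insig1 (log2 fold change 1.14) and Insig2 (-1.04) passed the adjusted threshold with the replicate block, and Insig1 also passed it without control 3 (limma).

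With each library left out in turn, members lower at an unadjusted p below 0.05 numbered 1 to 8, the 8 without control 2, members below all controls 4 to 19, the 19 without control 2, members lower by the study's thresholds 0 to 2, members higher at an unadjusted p below 0.05 0 to 1 and members above all controls 0 to 2, the highest values of the last 2 without control 3. Over all genes, 14.5% were lower at an unadjusted p below 0.05 and 20.8% lay below all controls without control 2. Without control 3, 2.64% of all genes were higher at an unadjusted p below 0.05. Shares of all genes were not taken for the other highest counts, so those counts show nothing particular to the members. Log2 fold changes that turned sign ranged as follows: Alb -0.16 to 0.094, Cope -0.060 to 0.11, Copz1 -0.11 to 0.041, F8 -0.15 to 0.23, Lman1 -0.12 to 0.063, Lman2 -0.33 to 0.012, Mbtps1 -0.45 to 0.017, Sec16b -0.042 to 0.056, Sec24a -0.045 to 0.11, Sec24c -0.27 to 0.047, Sec24d -0.17 to 0.17, Sec31a -0.15 to 0.073, Sec61a2 -0.20 to 0.43, Trappc1 -0.20 to 0.10, Trappc6a -0.29 to 0.064, Trappc6b -0.14 to 0.14. Differences in pair shares that turned sign ranged, in percentage points, as follows: Copb1 -0.316 to 2.65, Copg1 -2.26 to 1.42, Lman2 -1.07 to 2.51, Sec24c -2.49 to 1.08, Trappc6a -4.67 to 0.301. Depth is unknown, so what it limits could not be stated.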
